A study of Mus musculus with 12 samples.

Results

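The genes examined here encode the enzymes that build cholesterol and long-chain fatty acids, together with the sterol-sensing proteins that set their transcription. They were chosen by name, with earlier results of these data known. The list holds 31 genes of the pathway controlled by sterol regulatory element-binding proteins (SREBPs). All 31 were found among the 38561 Ensembl genes of the count table. By role, 6 act in the mevalonate steps, 11 in squalene and sterol synthesis, 6 in regulation and sterol transport, and 8 in fatty acid synthesis and desaturation. RNA of pancreatic islets was sequenced from 12 male mice, each 11 weeks old, with 1 library a mouse and 3 mice in each of 4 groups. NOD_insHEL islets came from NOD/LtJ mice with the alleles BR-H2k and 129S7(B6)-Ragtm1Mom and the transgene B6-Tg(ILK3mHEL)3Ccg, and NOD islets from NOD/LtJ mice with the same alleles and no transgene. B10_insHEL and B10 islets came from C57BL/10SnSg mice with those alleles, with and without that transgene. All 4 groups therefore shared a Rag deficiency, which removes mature B and T cells, and the MHC k haplotype, and all mice were normoglycemic. The insHEL transgene expresses hen egg lysozyme under an insulin promoter, so that it is active in beta cells. α-Amanitin and actinomycin D, which block transcription, were present while islets of all groups were isolated.

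Cholesterol is built from acetyl-CoA through mevalonate, farnesyl diphosphate, squalene and lanosterol, while fatty acids are built from the same precursor by carboxylation, chain elongation and desaturation. When sterols are scarce in the endoplasmic reticulum membrane, the escort protein Scap carries SREBP precursors to the Golgi, where proteases free the part that enters the nucleus and turns on the synthetic genes. When sterols are plentiful, the Insig proteins hold Scap and SREBP in the endoplasmic reticulum. In beta cells, membrane cholesterol content is known to affect insulin granules and their release, and desaturation of fatty acids is known to lessen the toxicity of saturated ones.

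Library totals ran from 2212062 counts in NOD_insHEL replicate 3 to 21138456 in B10 replicate 2, and 20 to 137 islets were picked for a library. Expression is given as CPM, read counts scaled to a common library size, and all 31 genes passed the filter on low counts, which left 15352 genes for testing. Together the 31 genes held 0.301 to 0.414% of a library's counts. All 8 islet hormone and granule markers were present, with sums of 289041 to 322079 CPM in NOD_insHEL, 269144 to 289790.3 in NOD, 232718 to 307801 in B10_insHEL and 212746 to 245348 in B10 islets. Markers of exocrine acinar cells differed most between the groups: the 15 listed genes summed to 40.1 to 82.1 CPM in NOD_insHEL, 136 to 240.1 in NOD, 31.9 to 2208 in B10_insHEL and 3128 to 4033 in B10 islets, the highest B10_insHEL value being that of replicate 2. The 8 endothelial markers summed to 730.1 to 843 CPM in NOD_insHEL, 947 to 1401 in NOD, 680.4 to 757 in B10_insHEL and 624 to 688 in B10 islets. In the sample descriptions the 3 B10 libraries carry numbers above 100 and the other 9 libraries numbers from 1 to 29. A preparation difference that such numbers might mark cannot be told apart from the B10 group, whereas NOD_insHEL, NOD and B10_insHEL lie within 1 range.

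Per kilobase of exon, the most abundant transcript of the pathway was Acly, whose product cleaves cytosolic citrate into the acetyl-CoA used by both branches. Its level averaged 345 CPM per kb in NOD_insHEL, 324 in NOD, 306 in B10_insHEL and 300.2 in B10 islets, and it held 43.8 to 53.0% of the counts of the 31 genes in a library. Next came the desaturase gene Scd2 at 69.03 CPM per kb over all groups, Insig1 at 31.5, the squalene epoxidase gene Sqle at 25.7 and the lanosterol demethylase gene Cyp51 at 22.2. The lowest levels per kilobase were those of Hsd17b7 at 1.98, of Acaca, the acetyl-CoA carboxylase gene, at 0.931, and of the isopentenyl diphosphate isomerase gene Idi1 at 0.245 CPM per kb. Idi1 had 0 to 23 counts a library, and its 0 counts in NOD_insHEL replicate 3 allow up to 1.36 CPM there, by counting error only. For Acaca, 30.4% of the 50-base words of its transcripts also occur in transcripts of other genes, mostly the pseudogene Gm5182, and for Idi1 the share was 17.7%, so that their counts could include or lose reads to those copies.

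**Figure D1:**
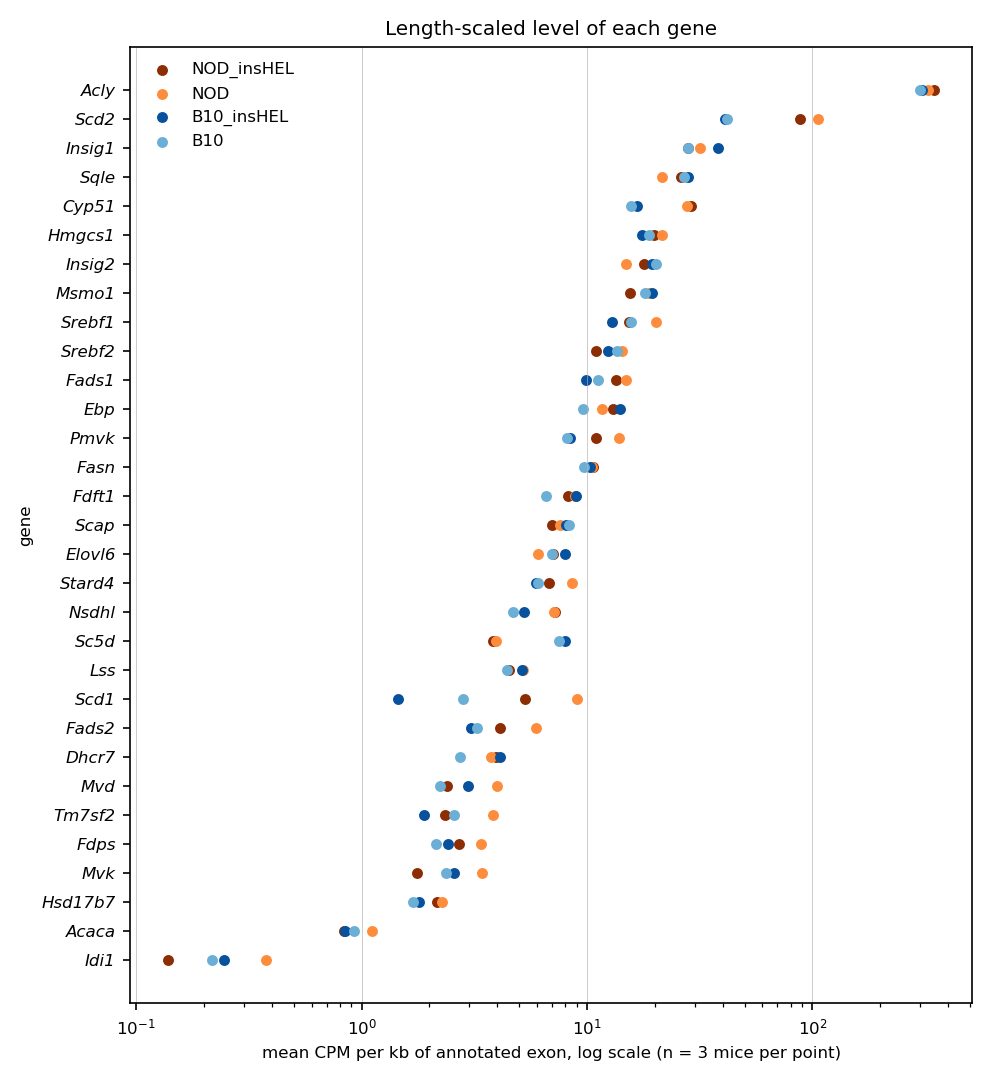
Level of each of the 31 genes in CPM per kilobase of exon (log axis), as group means of 3 mice for NOD_insHEL, NOD, B10_insHEL and B10 islets, ordered by the mean over groups. Acly stands above the other genes at 319 CPM per kb over all groups, and Idi1 is lowest at 0.245.

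The first question is how islets on the NOD background differ from those on the B10 background. The clearest differences lay in the fatty acid desaturase genes Scd1, Scd2 and Fads1 and in the sterol enzyme genes Cyp51 and Sc5d. Scd1, Scd2, Cyp51 and Fads1 were higher in NOD-background islets, and Sc5d was lower. These 5 genes were called in both available pairs of groups, NOD against B10 and NOD_insHEL against B10_insHEL. The pairs share no library, but 1 model of all 12 libraries gave both tests their estimate of spread. How many of all genes tested were called in both pairs was not counted, so this count has no background. The Fads1 call in NOD against B10 ended without B10 replicate 2 (adjusted p = 0.0531). Averaged over the transgene, with 6 libraries on each side, 11 of the 31 genes were higher and 2 were lower on the NOD background at an adjusted p under 0.05 (edgeR quasi-likelihood test), or 41.9% of the genes. Of all 15352 genes tested, 33.3% were called in that comparison, 15.7% higher and 17.6% lower. The median log2 difference of the 31 genes was 0.15, beside 0.01 for all genes tested, and 23 of 31 differences were positive, against 51.7% of all genes. In 5 higher genes (Scd1, Scd2, Cyp51, Fads1 and Nsdhl) and 1 lower gene (Sc5d) the 6 NOD-background libraries did not overlap the 6 B10-background libraries. No overlap was found for 11.3% of all genes.

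In NOD against B10 islets, 13 of the 31 genes were higher and 3 were lower, or 51.6%, beside 28.4% of all genes, of which 13.5% were higher and 14.9% lower. The median log2 difference was 0.41, beside 0.03 for all genes. NOD and B10 libraries did not overlap for 21 of the 31 genes, beside 47.5% of all genes. In NOD_insHEL against B10_insHEL islets, 4 were higher and 3 were lower, or 22.6%, beside 12.1% of all genes, of which 5.55% were higher and 6.5% lower, and the median was 0.02, beside -0.0065 for all genes. NOD_insHEL and B10_insHEL libraries did not overlap for 11 of the 31 genes, beside 27.0% of all genes. The 5 genes called in both comparisons are 31.2% of the genes called in NOD against B10 and 71.4% of those called in NOD_insHEL against B10_insHEL. The matching shares over all genes tested were not counted. In NOD against B10, the count of higher genes was 7 without NOD replicate 2, 5 without B10 replicate 2 and 7 without B10 replicate 3. In NOD_insHEL against B10_insHEL, the count of lower genes was 1 without NOD_insHEL replicate 1. Without B10_insHEL replicate 1 it was also 1, and the count of higher genes was 6.

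**Figure D2:**
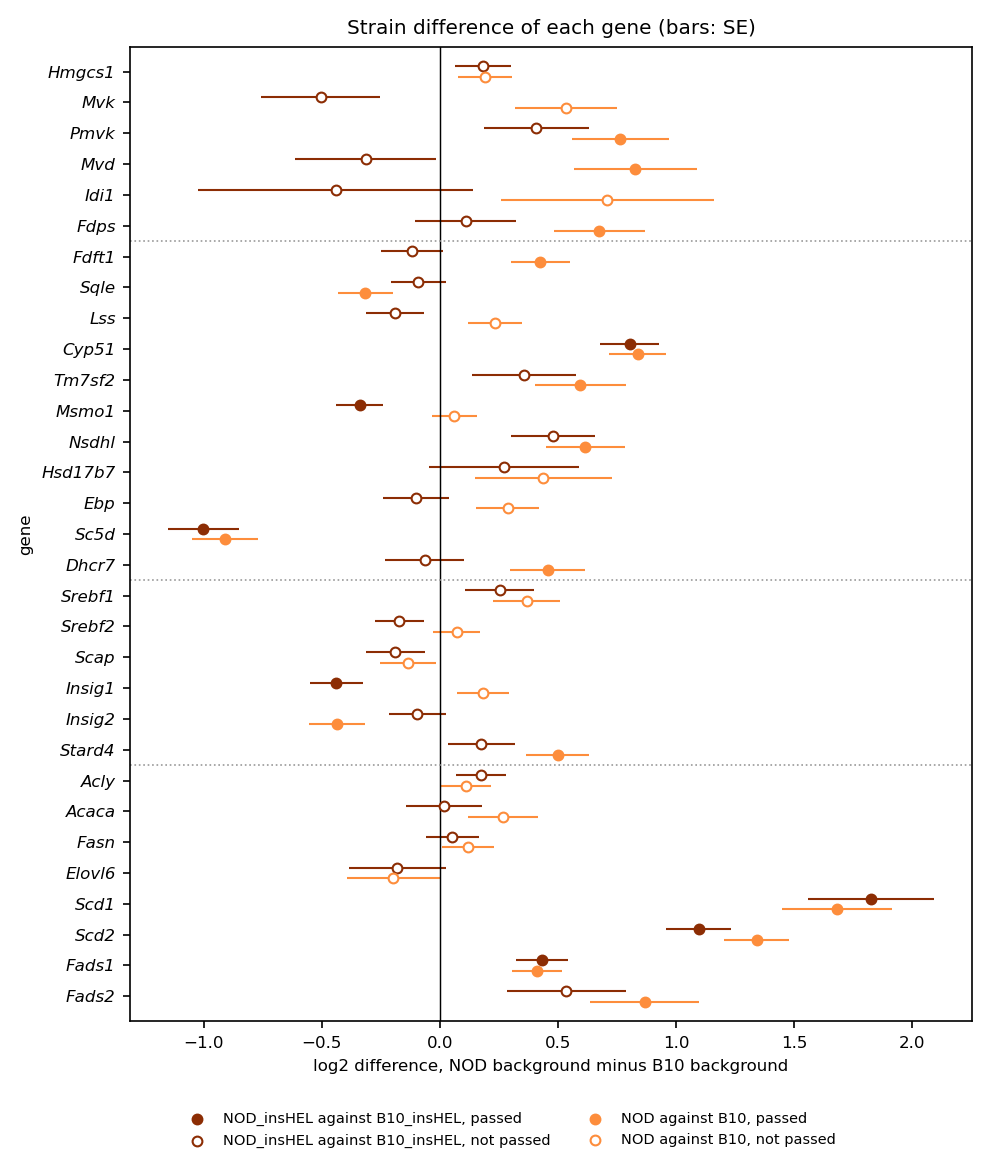
Log2 difference with its standard error for each of the 31 genes in NOD_insHEL against B10_insHEL islets (dark) and in NOD against B10 islets (orange), grouped by role, with genes at an adjusted p under 0.05 filled. Scd1, Scd2, Cyp51 and Fads1 lie to the right and Sc5d to the left of 0 in both, and the 6 mevalonate genes have a median of -0.10 in the first comparison and 0.69 in the second.

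Because the acinar markers separated B10 from the other groups, the strain comparison was repeated with the mean log2 CPM of the 15 acinar markers as a covariate. This score was 0.905 to 2.03 in NOD_insHEL, 2.65 to 3.37 in NOD, 0.559 to 6.49 in B10_insHEL and 7.03 to 7.37 in B10 islets. Beside the 4 group means of the model, only the spread within groups sets the slope of the score. That spread was by far widest in B10_insHEL, where replicate 2 had 6.49 beside 1.38 and 0.559. The covariate results therefore depend largely on that 1 library. With the covariate, 5 of the 13 calls averaged over the transgene remained: Scd1, Scd2, Cyp51 and Fads1 were higher, and Sc5d was lower. Among the 8 that ended, the log2 difference with the covariate stayed near the value without it for Tm7sf2 (0.52 beside 0.47), Nsdhl (0.47 beside 0.55), Stard4 (0.30 beside 0.34) and Insig2 (-0.26 in both). It was smaller for Fads2 (0.50 beside 0.70), Fdps (0.29 beside 0.39), Pmvk (0.24 beside 0.59) and Srebf1 (0.10 beside 0.31). In NOD against B10 islets the covariate left 4 of the 16 calls, those of Scd1, Scd2, Cyp51 and Sc5d, and in NOD_insHEL against B10_insHEL islets it left all 7. When any 1 of the 12 libraries was left out, 9 of the 13 averaged calls held (Pmvk, Cyp51, Nsdhl, Sc5d, Stard4, Scd1, Scd2, Fads1 and Fads2). With every library thinned to the total of the shallowest, 10 of the 13 averaged calls remained, 7 of the 16 in NOD against B10 and 6 of the 7 in NOD_insHEL against B10_insHEL islets. NOD and B10 libraries did not overlap in the score, so that the covariate compares these 2 groups beyond the range they share. No covariate was used for the endothelial markers, all 8 of which were called higher in NOD against B10 islets. In bulk islets, fewer cells of a type and less RNA per cell cannot be told apart.

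Among the fatty acid genes, the stearoyl-CoA desaturase genes Scd1 and Scd2, whose enzymes place the first double bond into saturated fatty acids, showed the 2 largest strain differences. Scd1 (chr19:44394455-44407879, minus strand, GRCm38) had 23.3, 25.2 and 29.6 CPM in NOD_insHEL and 48.8, 45.4 and 38.5 CPM in NOD islets, against 3.22, 9.92 and 8.15 CPM in B10_insHEL and 15.97, 13.02 and 12.5 CPM in B10 islets. Every NOD-background library was above every B10-background library, and within each background the transgenic libraries were the lower ones without overlap. The fold averaged over the transgene was 3.37 (log2 difference 1.75, SE 0.18, adjusted p = 1.70e-06). It was 3.54 in NOD_insHEL against B10_insHEL (adjusted p = 2.09e-04) and 3.21 in NOD against B10 islets (adjusted p = 8.12e-05).

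Scd2 (chr19:44293674-44306864, plus strand) was far more abundant and had 467, 515 and 457 CPM in NOD_insHEL and 643, 604 and 482 CPM in NOD islets, against 221, 181 and 271 CPM in B10_insHEL and 223, 211 and 249.1 CPM in B10 islets. The lowest NOD-background library lay well above the highest B10-background one. Its fold was 2.33 averaged over the transgene (log2 difference 1.22, SE 0.10, adjusted p = 5.08e-09), 2.14 in NOD_insHEL against B10_insHEL and 2.53 in NOD against B10 islets. Scd1 and Scd2 share part of their sequence with each other and with Scd3, and 4.56% of the 50-base words of Scd1 and 3.97% of those of Scd2 occur in transcripts of other genes, so that most of each gene's sequence was its own. Of 7 adipocyte markers, Adipoq, Plin1, Retn, Cfd and Adrb3 had 0 counts in all 12 libraries and Cidec had at most 0.430 CPM. The remaining one, the fatty acid-binding protein gene Fabp4, which capillary endothelial cells also express, had 16.4 to 21.5 CPM in NOD_insHEL and 31.5 to 44.7 CPM in NOD islets, against 10.4 to 15.7 CPM in B10_insHEL and 16.7 to 22.3 CPM in B10 islets. Fabp4 was called higher on the NOD background in all 3 strain comparisons (log2 0.76, SE 0.13, adjusted p = 9.53e-05 averaged over the transgene). It was called lower with the transgene on both backgrounds (log2 -0.88 on NOD and -0.64 on B10, adjusted p = 0.00852 and 0.0331). Scd1 levels also lay below those of the other libraries in the transgenic libraries of each background, a difference that was called on the B10 and not on the NOD background. The endothelial and Schwann cell marker sums were higher in NOD than in B10 islets (54.1 to 58.9 against 39.8 to 53.1 CPM for the 6 Schwann cell markers). All 8 endothelial markers were called higher in NOD against B10 and averaged over the transgene, and 0 in NOD_insHEL against B10_insHEL. Of 8 stellate and fibroblast markers, 2 were called higher in NOD against B10 and 0 lower. What part the cell types behind these markers and Fabp4 had in the strain differences of the 31 genes was not tested.

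Fads1 and Fads2 encode the front-end desaturases of polyunsaturated fatty acid synthesis. Fads1 had 60.5, 63.7 and 70.4 CPM in NOD_insHEL and 77.1, 67.5 and 70.7 CPM in NOD islets, against 52.00, 45.8 and 45.3 CPM in B10_insHEL and 53.2, 51.1 and 57.7 CPM in B10 islets. The backgrounds did not overlap, and the fold was 1.34 (log2 difference 0.42, SE 0.08, adjusted p = 2.42e-04). Fads2 had 18.4, 13.9 and 8.45 CPM in NOD_insHEL and 16.9, 21.7 and 20.2 CPM in NOD islets, against 13.5, 7.39 and 9.28 CPM in B10_insHEL and 13.6, 9.64 and 8.996 CPM in B10 islets. Here NOD_insHEL replicate 3, the shallowest library, lay among the B10-background libraries, and the fold was 1.63 (log2 difference 0.70, SE 0.17, adjusted p = 0.00384). In NOD against B10 islets alone, the Fads1 difference of 0.41 became 0.35 (adjusted p = 0.181) with the acinar covariate and 0.33 (adjusted p = 0.0867) with thinned libraries, and neither was called. The Fads2 difference was called in NOD against B10 islets (log2 0.87, adjusted p = 0.00906) and missed the threshold in NOD_insHEL against B10_insHEL (0.54, adjusted p = 0.186). With the acinar covariate the averaged difference was 0.50, adjusted p = 0.171. The Fads2 call in NOD against B10 ended without B10 replicate 3 (adjusted p = 0.0519), with the covariate (0.54, adjusted p = 0.384) and with thinned libraries (0.62, adjusted p = 0.106).

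The genes that make saturated fatty acids did not pass the test in either strain comparison. For Acly the log2 difference averaged over the transgene was 0.14 (SE 0.07, adjusted p = 0.153), from libraries at 1501 to 1891 CPM. Fasn, the fatty acid synthase gene, ranged over 101.7 to 131 CPM and differed by 0.09 (SE 0.08, adjusted p = 0.422). Acaca ranged over 12.7 to 19.3 CPM and differed by 0.14 (SE 0.11, adjusted p = 0.330). Elovl6, the elongase of saturated and monounsaturated chains, differed by -0.19 (SE 0.14, adjusted p = 0.334), and its 31.5 to 74.4 CPM include 1 high library, B10_insHEL replicate 2, which is also the B10_insHEL library with the high acinar score.

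**Figure D3:**
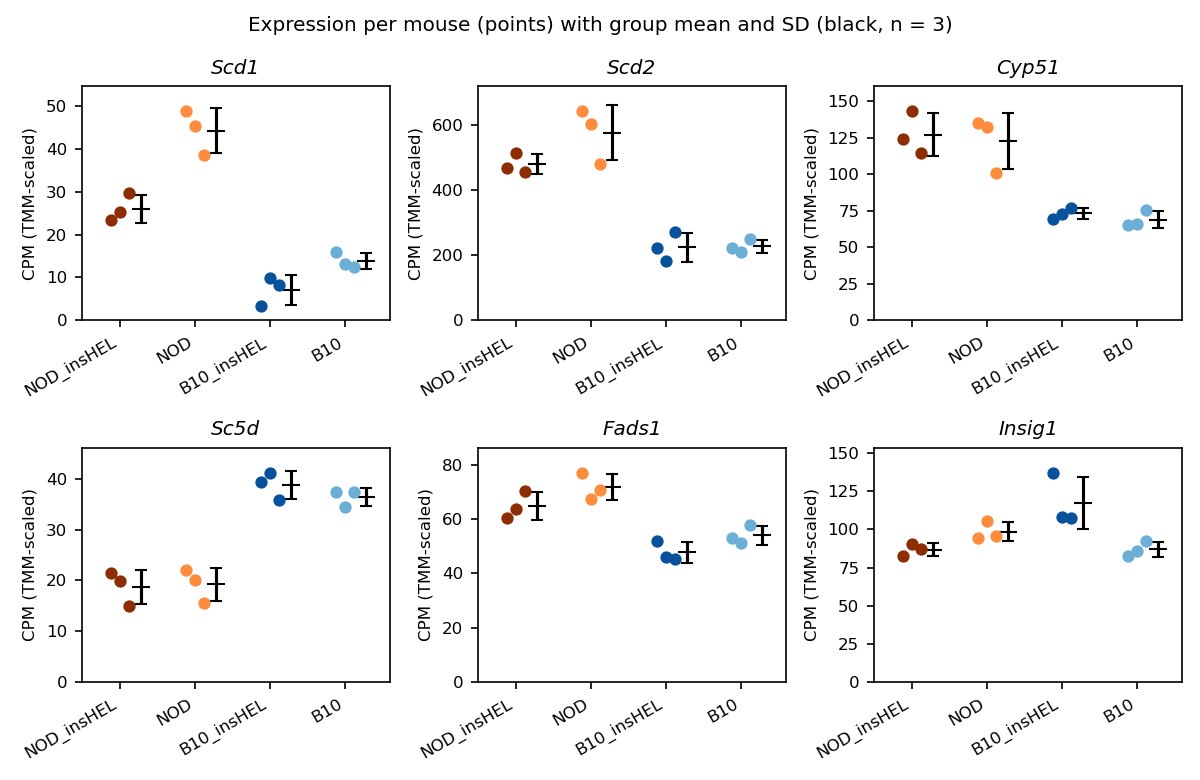
CPM of single genes in each library (points) with the group mean and SD of 3 mice (bars), with a separate linear axis from 0 for each gene, for NOD_insHEL, NOD, B10_insHEL and B10 islets. Scd1, Scd2, Cyp51 and Fads1 lie higher and Sc5d lower in all 6 NOD-background libraries, whereas Insig1 is highest in B10_insHEL islets, at 107 to 137 CPM.

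In the squalene and sterol steps, Cyp51 and Sc5d moved in opposite directions although their enzymes act in one route. Cyp51 (chr5:4081145-4104746, minus strand), which removes a methyl group from lanosterol, had 124, 143 and 115 CPM in NOD_insHEL and 135, 132 and 101.1 CPM in NOD islets, against 69.6, 73.1 and 77.2 CPM in B10_insHEL and 65.4, 65.9 and 75.6 CPM in B10 islets. The 2 backgrounds did not overlap, and the fold was 1.77 (log2 difference 0.82, SE 0.09, adjusted p = 3.06e-07), with 1.75 in NOD_insHEL against B10_insHEL and 1.79 in NOD against B10 islets. Sc5d (chr9:42251595-42264256, minus strand), the desaturase of lathosterol near the end of the pathway, had 21.4, 19.8 and 15.02 CPM in NOD_insHEL and 22.05, 19.99 and 15.6 CPM in NOD islets, against 39.4, 41.2 and 35.8 CPM in B10_insHEL and 37.3, 34.5 and 37.5 CPM in B10 islets. All NOD-background libraries were below all B10-background libraries, and the fold was 0.516 (log2 difference -0.96, SE 0.10, adjusted p = 3.64e-07). It was 0.500 in NOD_insHEL against B10_insHEL (adjusted p = 7.61e-05) and 0.532 in NOD against B10 islets (adjusted p = 6.94e-05).

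The bases before the gene start are given for Sc5d beside Pmvk, which was higher on the NOD background, and Hmgcs1, which was not called, because SREBPs are known to act at such gene starts with the help of NF-Y. The stretches are the 250 bases before the start site in RefSeq on GRCm38.p6, for Hmgcs1 chr13:119690101-119690350 on the plus strand, for Pmvk chr3:89454291-89454540 on the plus strand and for Sc5d chr9:42264301-42264550 on the minus strand, and none of them overlaps an annotated exon. Pmvk has another RefSeq start further downstream, whose stretch is not printed (chr3:89459321-89459570). That stretch overlaps Pmvk exons over 144 bases and had no match. Capitals mark matches to the sterol regulatory element TCACNCCAC, the NF-Y box CCAAT on either strand and the E-box CACGTG.

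Hmgcs1: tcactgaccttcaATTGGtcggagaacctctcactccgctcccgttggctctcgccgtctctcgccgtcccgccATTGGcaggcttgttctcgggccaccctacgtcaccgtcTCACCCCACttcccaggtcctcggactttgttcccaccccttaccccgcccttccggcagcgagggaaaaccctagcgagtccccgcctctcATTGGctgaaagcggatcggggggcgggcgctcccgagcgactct
Pmvk: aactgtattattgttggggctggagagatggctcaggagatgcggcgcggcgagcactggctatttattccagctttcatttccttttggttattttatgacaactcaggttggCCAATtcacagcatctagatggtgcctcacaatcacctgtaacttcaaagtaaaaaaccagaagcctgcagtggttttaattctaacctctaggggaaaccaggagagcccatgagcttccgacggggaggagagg
Sc5d: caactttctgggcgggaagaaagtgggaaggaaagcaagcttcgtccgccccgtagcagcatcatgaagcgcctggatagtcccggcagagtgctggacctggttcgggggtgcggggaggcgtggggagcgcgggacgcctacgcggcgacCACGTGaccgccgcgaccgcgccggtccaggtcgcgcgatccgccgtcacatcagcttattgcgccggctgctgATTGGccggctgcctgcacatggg

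In these stretches, Hmgcs1 had the TCACNCCAC match at position -137 and NF-Y boxes at -237, -176 and -45, Pmvk had an NF-Y box at -136, and Sc5d had an NF-Y box at -24 and an E-box at -98. RefSeq windows reaching from 250 bases before to 50 bases after the start were matched for 24 of the 31 genes, and not for Fdps, Fdft1, Sqle, Stard4, Scd1, Scd2 and Fads1. On either strand, TCACNCCAC occurred in 1 of the 24 genes (4.17%), against 1.44% of the 27025 genes with a window. CCAAT occurred in 20 of 24 (83.3%), against 41.1% of all genes, and CACGTG in 5 of 24 (20.8%), against 8.09%. The 20 genes with CCAAT include genes that were higher, lower and not called between the strains. A match describes these letters and not a bound site.

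Nsdhl and Tm7sf2, whose enzymes take part in removing methyl groups and in reducing the sterol ring, were higher as well. Nsdhl had 20.2, 22.4 and 19.3 CPM in NOD_insHEL and 20.7, 22.7 and 17.9 CPM in NOD islets, against 13.9, 13.9 and 17.02 CPM in B10_insHEL and 14.98, 10.2 and 15.2 CPM in B10 islets. The 6 NOD-background libraries lay above the other 6, and the log2 difference was 0.55 (SE 0.12, adjusted p = 0.00161). It was called in NOD against B10 islets (0.62, adjusted p = 0.00915) and missed the threshold in NOD_insHEL against B10_insHEL (0.48, adjusted p = 0.0845), and with the acinar covariate the averaged value was 0.47, adjusted p = 0.0703. Tm7sf2 had 9.01, 13.6 and 8.45 CPM in NOD_insHEL and 17.5, 20.6 and 12.7 CPM in NOD islets, against 8.60, 8.87 and 7.43 CPM in B10_insHEL and 12.2, 11.6 and 10.2 CPM in B10 islets. Its NOD libraries were above the B10 libraries, while the 2 transgenic groups overlapped. The averaged difference was 0.47 (SE 0.15, adjusted p = 0.0162), which missed the threshold without NOD replicate 2 or NOD_insHEL replicate 2, at adjusted p values of up to 0.0943, and with the acinar covariate (0.52, adjusted p = 0.110). In NOD against B10 islets, the covariate and thinning each ended the calls of Nsdhl (adjusted p = 0.242 and 0.112) and Tm7sf2 (adjusted p = 0.187 and 0.184). Tm7sf2 overlaps Vps51 on the same strand over 12.1% of its exon bases, so that reads there could be counted for either gene or for none.

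Another 3 sterol genes were called in NOD against B10 islets but not averaged over the transgene. Fdft1, the squalene synthase gene, had 36.00, 42.01 and 33.8 CPM in NOD islets, against 30.7, 25.8 and 27.1 CPM in B10 islets (log2 0.43 (SE 0.12, adjusted p = 0.0143)), and the groups did not overlap. Dhcr7, whose product makes cholesterol in the last step of one branch, had 19.7, 25.4 and 20.3 CPM in NOD islets, against 14.8, 16.00 and 17.04 CPM in B10 islets (log2 0.46 (SE 0.16, adjusted p = 0.0368)), again without overlap. Sqle, whose enzyme epoxidizes squalene and is often rate-limiting, went the other way with 116, 134 and 109.6 CPM in NOD islets, against 142, 142 and 163 CPM in B10 islets (log2 -0.31 (SE 0.12, adjusted p = 0.0463)). Its NOD libraries were all below its B10 libraries. Leaving out single libraries ended the Fdft1 call for NOD replicate 2 and B10 replicates 2 and 3 (adjusted p up to 0.0943), the Dhcr7 call for NOD replicates 2 and 3 and each B10 library (up to 0.198), and the Sqle call for NOD replicates 1 and 3, NOD_insHEL replicate 1 and each B10 library (up to 0.184). With the acinar covariate all 3 calls ended, at 0.48 (adjusted p = 0.114) for Fdft1, 0.31 (adjusted p = 0.476) for Dhcr7 and -0.40 (adjusted p = 0.152) for Sqle. Thinning ended those of Dhcr7 (0.31, adjusted p = 0.342) and Sqle (-0.21, adjusted p = 0.251). Fdft1 lies opposite Ctsb, with which it shares 18.3% of its exon bases on the other strand, and 9.38% of its words occur in Gm6781.

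In NOD_insHEL against B10_insHEL islets, Msmo1, which encodes the methyl sterol monooxygenase, was lower. It had 89.3, 98.8 and 96.7 CPM in NOD_insHEL islets, against 124, 118 and 118 CPM in B10_insHEL islets (log2 -0.34 (SE 0.10, adjusted p = 0.0267)), and the groups did not overlap. The call ended without NOD_insHEL replicate 1 or B10_insHEL replicate 1 (adjusted p up to 0.129). Thinning ended it too (-0.28, adjusted p = 0.185). In NOD against B10 islets the Msmo1 difference was 0.06 (SE 0.10, adjusted p = 0.670). Lss, Ebp and Hsd17b7 were not called for strain in any of the 3 comparisons with all libraries. Averaged over the transgene, lanosterol synthase gene Lss differed by 0.02 (SE 0.08, adjusted p = 0.867), the sterol isomerase gene Ebp by 0.09 (SE 0.10, adjusted p = 0.483) and Hsd17b7 by 0.36 (SE 0.21, adjusted p = 0.220), the last with libraries from 5.83 to 16.0 CPM. Without B10_insHEL replicate 1, Hsd17b7 was called higher averaged over the transgene (0.62, adjusted p = 0.00683) and in NOD_insHEL against B10_insHEL islets (0.81, adjusted p = 0.0472).

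In the mevalonate steps, Pmvk, Mvd and Fdps were higher in NOD than in B10 islets. Pmvk, the phosphomevalonate kinase gene, had 20.5, 18.3 and 17.4 CPM in NOD_insHEL and 25.5, 23.6 and 21.9 CPM in NOD islets, against 15.04, 9.83 and 18.3 CPM in B10_insHEL and 18.1, 13.7 and 9.95 CPM in B10 islets. The NOD libraries were above all B10-background libraries, while B10_insHEL replicate 3 and B10 replicate 1 reached the NOD_insHEL range. The log2 difference was 0.59 (SE 0.15, adjusted p = 0.00564) averaged over the transgene, 0.76 (SE 0.21, adjusted p = 0.00946) in NOD against B10 islets and 0.41 (SE 0.22, adjusted p = 0.260) in NOD_insHEL against B10_insHEL islets. With the acinar covariate the averaged Pmvk difference was 0.24, adjusted p = 0.423. The call in NOD against B10 ended without B10 replicate 3 (adjusted p = 0.0621) and with the covariate (0.20, adjusted p = 0.719).

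Mvd, the diphosphomevalonate decarboxylase gene, had 5.45, 8.79 and 8.06 CPM in NOD islets, against 4.68, 4.51 and 3.27 CPM in B10 islets (log2 0.83 (SE 0.26, adjusted p = 0.0215)). The groups did not overlap, and in NOD_insHEL against B10_insHEL islets the difference was -0.31 (SE 0.30, adjusted p = 0.554). Fdps, which makes farnesyl diphosphate for sterols and for protein prenylation, had 10.4, 9.63 and 14.1 CPM in NOD_insHEL and 11.2, 17.2 and 14.4 CPM in NOD islets, against 10.6, 8.61 and 11.1 CPM in B10_insHEL and 9.54, 7.66 and 9.75 CPM in B10 islets. Its NOD libraries were above its B10 libraries, with NOD_insHEL and B10_insHEL overlapping, and the difference was 0.68 (SE 0.19, adjusted p = 0.0125) in NOD against B10 and 0.39 (SE 0.14, adjusted p = 0.0403) averaged over the transgene. The averaged Fdps call ended with any of 8 libraries left out (NOD replicates 2 and 3, NOD_insHEL replicates 1 and 3, each B10 library and B10_insHEL replicate 2), at adjusted p values of up to 0.130. The Mvd call ended without NOD replicate 2 or 3 or B10 replicate 2 or 3 (up to 0.116), with the acinar covariate (0.25, adjusted p = 0.747) and with thinned libraries (0.58, adjusted p = 0.438). The covariate and thinning also ended both Fdps calls, at 0.29 (adjusted p = 0.374) and 0.33 (adjusted p = 0.218) averaged over the transgene and at 0.51 (adjusted p = 0.307) and 0.64 (adjusted p = 0.0926) in NOD against B10. The Fdps call in NOD against B10 ended without NOD replicate 2 or B10 replicate 2 too (up to 0.0978). For Fdps, 26.2% of the words also occur in other transcripts, mostly Gm43738, which overlaps it on the same strand.

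The entry enzyme gene Hmgcs1 had 72.2 to 109.7 CPM over the 12 libraries and differed by 0.19 (SE 0.08, adjusted p = 0.0887) averaged over the transgene. Mvk, the mevalonate kinase gene, differed by 0.01 (SE 0.17, adjusted p = 0.957), with opposite signs in the 2 pairs of groups: 0.53 (adjusted p = 0.0700) in NOD against B10 and -0.50 (adjusted p = 0.212) in NOD_insHEL against B10_insHEL islets. Idi1 differed by 0.13 (SE 0.37, adjusted p = 0.813), at a depth that could not show a difference of that size.

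Of the regulators, Srebf1 and the sterol carrier gene Stard4 were higher on the NOD background and Insig2 was lower. Srebf1, which encodes the SREBP form that mainly drives fatty acid genes, had 89.7, 75.7 and 94.8 CPM in NOD_insHEL and 104.05, 135 and 103.8 CPM in NOD islets, against 83.7, 54.7 and 79.02 CPM in B10_insHEL and 84.2, 88.7 and 92.96 CPM in B10 islets. B10_insHEL replicate 2 was the lowest library and NOD replicate 2 the highest, and the backgrounds overlapped. The difference was 0.31 (SE 0.10, adjusted p = 0.0243), and it missed the threshold in each pair of groups alone (adjusted p = 0.0580 for NOD against B10 and 0.296 for NOD_insHEL against B10_insHEL). The averaged call ended with any of 6 libraries left out (NOD replicate 2, NOD_insHEL replicates 1 and 3, B10 replicates 1 and 2 and B10_insHEL replicate 2), at adjusted p values of up to 0.0804, and with the acinar covariate the difference was 0.10, adjusted p = 0.643.

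Stard4, whose product moves cholesterol between membranes, had 35.3, 37.1 and 41.8 CPM in NOD_insHEL and 48.1, 51.7 and 43.2 CPM in NOD islets, against 38.8, 30.96 and 30.1 CPM in B10_insHEL and 29.5, 32.04 and 40.01 CPM in B10 islets. NOD libraries were above all B10-background libraries, whereas NOD_insHEL libraries overlapped them, and the difference was 0.34 (SE 0.10, adjusted p = 0.0110) averaged over the transgene and 0.50 (SE 0.13, adjusted p = 0.00832) in NOD against B10 islets. The Stard4 calls ended with the acinar covariate (0.30, adjusted p = 0.165 averaged and 0.44, adjusted p = 0.194 in NOD against B10). With thinned libraries they ended too, at 0.16 (adjusted p = 0.365) averaged and 0.23 (adjusted p = 0.379) in NOD against B10. Insig2, an endoplasmic reticulum anchor for Scap, had 62.8, 73.1 and 50.7 CPM in NOD_insHEL and 55.7, 47.5 and 52.6 CPM in NOD islets, against 65.8, 69.6 and 67.1 CPM in B10_insHEL and 65.2, 69.03 and 76.1 CPM in B10 islets. The NOD libraries were below all B10-background libraries, and NOD_insHEL replicate 2 lay among the B10 ones. The Insig2 difference was -0.43 (SE 0.12, adjusted p = 0.00958) in NOD against B10 islets and -0.26 (SE 0.08, adjusted p = 0.0207) averaged over the transgene, and with the acinar covariate the averaged value was -0.26, adjusted p = 0.151, and the NOD against B10 value -0.43, adjusted p = 0.136. Thinning gave an averaged value of -0.25, adjusted p = 0.0915, for Insig2. The averaged Insig2 call ended without NOD replicate 2, NOD_insHEL replicate 3 or B10 replicate 3 (adjusted p up to 0.0587), the NOD against B10 call without NOD replicate 2 (0.0545), and the NOD against B10 call for Stard4 without B10 replicate 1 or 2 (up to 0.0528).

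Srebf2, the SREBP form that mainly drives sterol genes, and Scap were not called for strain. Averaged over the transgene, Srebf2 differed by -0.05 (SE 0.07, adjusted p = 0.628) and Scap by -0.16 (SE 0.09, adjusted p = 0.157). Insig1, the other Insig gene and itself a known SREBP target, differed by -0.13 (SE 0.08, adjusted p = 0.227) in that comparison. In NOD_insHEL against B10_insHEL islets Insig1 was lower (log2 -0.44 (SE 0.11, adjusted p = 0.0130)), a call that ended without NOD_insHEL replicate 1 or B10_insHEL replicate 1 (adjusted p up to 0.0710).

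**Figure D4:**
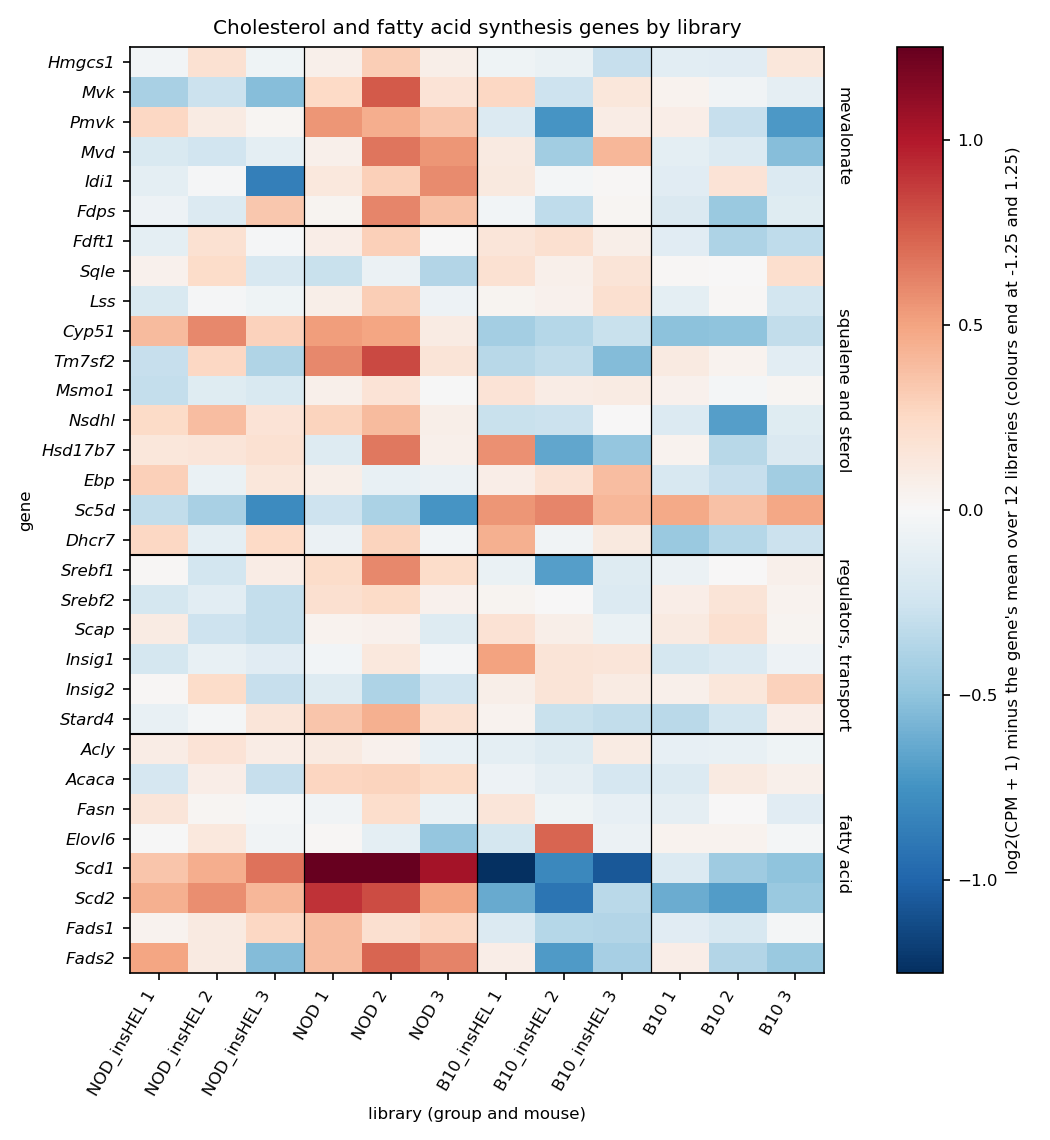
Log2(CPM + 1) of each of the 31 genes in each of the 12 libraries, centred on the gene's mean and ordered by role, with columns running from NOD_insHEL over NOD and B10_insHEL to B10. The bands of Scd1, Scd2, Cyp51, Nsdhl and Sc5d change between the 6 NOD-background and the 6 B10-background libraries, and colours end at the limits of the scale.

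The second question is what the insHEL transgene changed on each background, in comparisons that use the same 12 libraries as those between the strains. On the NOD background, Mvk and Srebf2 fell in transgenic islets and none of the 31 genes was higher. The 2 called genes are 6.45% of the 31, beside 7.06% of all genes, of which 3.88% were higher and 3.18% lower. At an unadjusted p under 0.05, 2 of the 31 were higher and 9 were lower, beside 23.5% of all genes, and DESeq2 also called 0 higher. The median log2 difference was -0.19, beside -0.0062 for all genes, and 21 of 31 were negative, while 49.3% of all genes were positive. NOD_insHEL and NOD libraries did not overlap for 11 of the 31 genes, beside 26.6% of all genes. All 6 mevalonate genes had negative differences, with a median of -0.57, although Mvk, Mvd and Idi1 had only 9, 10 and 0 counts in NOD_insHEL replicate 3. The 11 squalene and sterol genes were split, 6 positive and 5 negative, with a median of 0.0028. Negative differences were found for 5 of 6 regulation and transport genes (median -0.27) and 5 of 8 fatty acid genes (median -0.21).

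Mvk had 4.70, 5.28 and 4.23 CPM in NOD_insHEL islets, against 8.01, 11.8 and 7.49 CPM in NOD islets. The 3 transgenic libraries were below the 3 others, and the log2 difference was -0.93 (SE 0.25, adjusted p = 0.0283), from as few as 9 counts in NOD_insHEL replicate 3. Its call ended without NOD replicate 2 or NOD_insHEL replicate 1 or 2 (adjusted p up to 0.156). Thinned libraries gave Mvk a difference of -0.47 (adjusted p = 0.490), which was not called. Srebf2 had 78.4, 83.2 and 74.2 CPM in NOD_insHEL islets, against 105, 108 and 94.8 CPM in NOD islets. These groups did not overlap either, and the difference was -0.38 (SE 0.10, adjusted p = 0.0329), but the call ended with any of the 6 libraries left out, the highest adjusted p being 0.129. The value with the acinar covariate was -0.36, adjusted p = 0.0512.

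Several other genes lay just outside the threshold in NOD_insHEL against NOD islets. Tm7sf2 differed by -0.69 (SE 0.21, adjusted p = 0.0516), Scd1 by -0.80 (SE 0.24, adjusted p = 0.0559) and Msmo1 by -0.30 (SE 0.10, adjusted p = 0.0725). All 3 were called lower by DESeq2 (Tm7sf2 -0.68, adjusted p = 0.0356, Scd1 -0.78, adjusted p = 0.0160 and Msmo1 -0.29, adjusted p = 0.0344), which brought the count of lower genes to 5. The endothelial marker sums given above were lower in NOD_insHEL than in NOD islets, and 5 of the 8 endothelial markers were called lower in this comparison. Their part in the differences of the 31 genes was not tested.

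On the B10 background, Dhcr7, Ebp, Fdft1 and Insig1 rose in transgenic islets and Scd1 fell, which is 16.1% of the 31 genes. Of all genes 6.85% were called, 4.09% higher and 2.76% lower, and the median difference was 0.07, beside -0.00035 for all genes. B10_insHEL and B10 libraries did not overlap for 10 of the 31 genes, beside 26.7% of all genes. Dhcr7 had 28.7, 20.1 and 22.7 CPM in B10_insHEL islets, against 14.8, 16.00 and 17.04 CPM in B10 islets (log2 difference 0.58, SE 0.16, adjusted p = 0.0323), with no overlap. Ebp had 29.3, 31.5 and 36.4 CPM in B10_insHEL islets, against 23.9, 22.3 and 20.1 CPM in B10 islets (log2 difference 0.55, SE 0.13, adjusted p = 0.0160), with the transgenic libraries all above the others. Fdft1 had 37.9, 39.1 and 35.9 CPM in B10_insHEL islets, against 30.7, 25.8 and 27.1 CPM in B10 islets (log2 difference 0.44, SE 0.12, adjusted p = 0.0379). The 2 groups of Fdft1 were apart too.

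Insig1 had 137, 108 and 107 CPM in B10_insHEL islets, against 82.8, 85.6 and 92.3 CPM in B10 islets. Replicate 1 was the highest of the transgenic libraries, all 3 were above the B10 libraries, and the difference was 0.44 (SE 0.11, adjusted p = 0.0206). Scd1 had 3.22, 9.92 and 8.15 CPM in B10_insHEL islets, against 15.97, 13.02 and 12.5 CPM in B10 islets. The groups did not overlap, B10_insHEL replicate 1 being the lowest with 30 counts, and the difference was -0.94 (SE 0.26, adjusted p = 0.0376). Calls in this comparison depended on single libraries: without B10 replicate 1, B10_insHEL replicate 1 or B10_insHEL replicate 3, 1 gene was called higher, without B10 replicate 2 or 3 there was none, and the Scd1 call ended without any of 7 libraries (NOD replicate 2, NOD_insHEL replicates 1 and 2, each B10 library and B10_insHEL replicate 3), at adjusted p values of up to 0.129. B10_insHEL and B10 islets also differed in the acinar score, with 2 of 3 B10_insHEL libraries low in it. With the score as covariate the differences were 0.41, adjusted p = 0.512 for Dhcr7, 0.50, adjusted p = 0.270 for Ebp, 0.49, adjusted p = 0.239 for Fdft1, 0.33, adjusted p = 0.408 for Insig1 and -0.51, adjusted p = 0.594 for Scd1, so that none of the 5 calls remained. With the covariate Elovl6 was called higher (0.75, adjusted p = 0.0436), beside 0.20 without it. B10_insHEL replicate 2 had both the highest Elovl6 level (74.4 CPM) and the highest score (6.49) of its group. The scores of B10_insHEL and B10 libraries did not overlap, so that the covariate compares the groups beyond the range they share. Thinning ended the calls of Dhcr7 (0.44, adjusted p = 0.274) and Ebp (adjusted p = 0.0691). Scaling by total counts, which moves the median of all genes in this comparison to -0.14, ended the calls of Dhcr7, Fdft1 and Insig1.

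**Figure D5:**
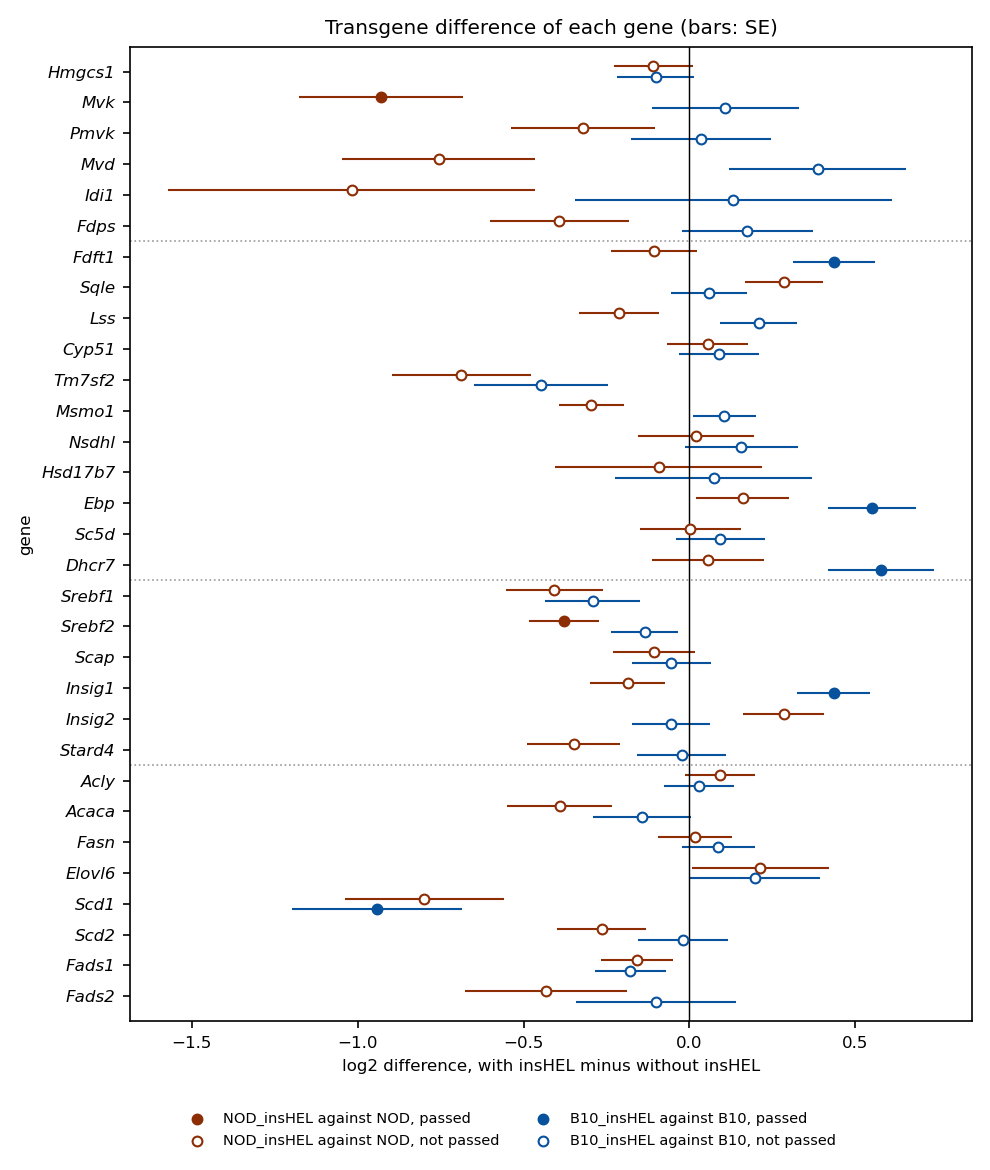
Log2 difference with its standard error for each of the 31 genes in NOD_insHEL against NOD and in B10_insHEL against B10 islets, grouped by role, with genes at an adjusted p under 0.05 filled. Mvk (-0.93) and Srebf2 (-0.38) are called in the first comparison and Dhcr7 (0.58), Ebp (0.55), Fdft1 (0.44), Insig1 (0.44) and Scd1 (-0.94) in the second.

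The interaction tests whether the transgene difference on the NOD background differs from that on the B10 background. None of the 31 genes passed with edgeR, beside 0.0586% of all genes, while 7 had an unadjusted p under 0.05, beside 12.2% of all genes. DESeq2 called 1, Insig1. The lowest p was that of Insig1, with an interaction of -0.62 (SE 0.16, adjusted p = 0.162): the NOD_insHEL mean was 86.8 ± 3.96 CPM beside 98.6 ± 6.27 in NOD, and the B10_insHEL mean was 118 ± 17.2 CPM beside 86.9 ± 4.92 in B10 (SD, n = 3 each). With DESeq2 it was -0.61, adjusted p = 0.0486, and without B10_insHEL replicate 2 edgeR gave a log2 interaction of -0.68 (adjusted p = 0.0370). The interaction was negative for 25 of the 31 genes with a median of -0.24, beside -0.0069 for all genes, of which 49.2% were positive. It was negative for all 6 mevalonate genes, with a median of -0.80, and for 10 of 11 squalene and sterol genes, with a median of -0.24. Of the 6 regulation and transport genes, 5 were negative (median -0.18), and the 8 fatty acid genes were split, 4 positive and 4 negative (median -0.03). Mvd (-1.14 (SE 0.39, adjusted p = 0.265)) and Mvk (-1.04 (SE 0.33, adjusted p = 0.245)) had the largest negative interactions among genes with over 3 counts in every library. Every interaction includes the B10 libraries, which had the highest acinar scores and the description numbers above 100.

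Genes of the same pathways outside the 31 also differed in both directions between the backgrounds, averaged over the transgene. None reached 2-fold, and those named here were chosen after their values were seen. Of 7 other genes of sterol and isoprenoid steps, Acat2 and Aacs were higher and Acat1 and Ggps1 were lower. Ggps1, which makes geranylgeranyl diphosphate from the product of Fdps, differed by -0.63 (SE 0.09, adjusted p = 1.02e-05). Of 10 genes that control SREBP processing or the related liver X receptor pathway, Nr1h2 was higher at 0.59 (SE 0.10, adjusted p = 7.72e-05), and Nr1h3, Erlin2 and Mbtps1 were lower. Nr1h2 and Nr1h3 encode liver X receptors, which sense oxysterols.

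Of 25 other fatty acid genes tested, out of 26 listed with Elovl3 not passing the filter, 3 were higher (Lpin1, Elovl2 and Me1) and 7 were lower. The lower ones included Acss2, which makes acetyl-CoA from acetate, at -0.87 (SE 0.10, adjusted p = 9.77e-07), and Hsd17b12, an enzyme of the elongation cycle, at -0.74 (SE 0.07, adjusted p = 1.08e-07). Elovl5, which elongates polyunsaturated chains, differed by -0.50 (SE 0.08, adjusted p = 1.18e-04), and Fads6 by -0.60 (SE 0.08, adjusted p = 1.03e-05). Of 7 genes of sterol export and storage, Mylip was higher and Soat1, which esterifies cholesterol, was lower at -0.39 (SE 0.12, adjusted p = 0.0131). The 15.7% of all genes higher and the 17.6% lower in this comparison are the background for these counts.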

How the data were processed

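The deposited table holds raw read counts per Ensembl gene for 38561 genes in 12 libraries, made by the authors from stranded mRNA libraries per the labels' protocols. GRCm38 is the build in the submitters' processing notes, which list TopHat2 2.0.8b, cutadapt, DESeq and HTSeq. Which annotation, strand setting and counting mode were used is not given in the sources used here. Both backgrounds were mapped to that 1 assembly, and how this affects counts of NOD alleles was not tested. Symbols, coordinates and exon lengths came from GENCODE vM21 on GRCm38 by Ensembl identifier (36639 matched, 95.0%).

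Counts were tested with edgeR 4.0.16 in R 4.3.3 (filterByExpr, TMM, 4 group means over all 12 libraries, robust quasi-likelihood F-tests, two-sided, Benjamini-Hochberg adjustment over the 15352 genes tested, threshold 0.05). The common biological coefficient of variation was 0.142. Standard errors are the absolute log2 difference divided by the square root of F, and CPM use TMM-scaled library sizes. The labels give 3 separate mice for each genotype. Counts of replicates of a group differed by more than sampling noise. On simulated data for the averaged strain comparison, with 200 of 15352 genes changed, 90.7% of 2-fold and 62.2% of 1.5-fold changes were called, with 4 unchanged genes called. The simulation gave all genes the same dispersion and changed far fewer genes than the 33.3% called in the data. Its shares therefore need not hold for the real comparison. Counting limits use 3 counts and the unscaled library total. Reads carry no molecular identifiers, so these limits cover counting error only.

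Alternatives were RLE scaling, total counts, DESeq2 1.42.0, no filter, a replicate block, an acinar score as covariate, all libraries thinned to 2212062 counts, and each library left out in turn. The 31 genes and the gene lists were chosen with earlier results of these data known. All 31 are described, those called in a comparison with values per library. Of the other pathway lists, genes called for the averaged strain difference were counted, and genes of at least 2-fold were to be named. One gene of these lists is not reported here and was left out of their counts. Promoter stretches and motif windows came from RefSeq (GRCm38.p6), and shared reads were assessed from 50-base words of GENCODE vM21 transcripts.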

Additional observations from a re-analysis of the deposited data

How the results depend on the processing

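No gene of the 31 changed direction in any call under the alternatives. Of the 43 calls over all comparisons, RLE scaling and DESeq2 ended 0, no filter 1, total counts 3, thinning 16 and the acinar covariate 26, and leaving out a library ended 90 of 516. With the acinar covariate, 4 genes were higher and 1 lower averaged over the transgene, 3 higher and 1 lower in NOD against B10, and 1 higher and 0 lower for the transgene in B10, where the 1 is Elovl6 and all 5 calls had ended. Thinned to the shallowest library, 1 was lower averaged over the transgene, 5 were higher in NOD against B10, 1 was lower for the transgene in NOD and 2 were higher for the transgene in B10. For the transgene in NOD, 6 were lower with total counts, 5 with DESeq2 and 5 without the filter. For the transgene in B10, total counts gave 1 higher and 2 lower, with the median of all genes at -0.14 there and -0.10 for the transgene in NOD. DESeq2 called 1 lower interaction. Fewer reads are what thinning leaves, the slope of the covariate depends largely on B10_insHEL replicate 2, and the other causes were not tested.

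With 1 library left out, counts of higher and lower genes ranged over 8 to 12 and 1 to 3 averaged over the transgene, 5 to 15 and 2 to 3 in NOD against B10, 4 to 6 and 1 to 3 in NOD_insHEL against B10_insHEL, 0 to 1 and 0 to 5 for the transgene in NOD, 0 to 4 and 0 to 1 for the transgene in B10, and 0 to 0 and 0 to 1 for the interaction. The labels say nothing of paired mice, and the replicate numbers showed no sign of pairing. Same-numbered libraries correlated at -0.095 to 0.080 in their deviations, beside -0.101 to 0.119 for libraries with different numbers. With the replicate block, 0 genes were lower for the transgene in B10 (Scd1 lost its call) and Sqle lost its call in NOD against B10, and no other of the 43 calls was lost.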

Other observations

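Of the 31 genes, 5 lie on chromosome 19 (Tm7sf2, Fads2, Fads1, Scd2 and Scd1), and all 5 were higher in NOD-background than in B10-background islets averaged over the transgene. Of the 505 chromosome 19 genes tested, 19.6% were higher and 16.2% were lower. This grouping was made after the values were seen, and it has no test. The 4 Scd genes lie within chr19:44203269-44407879 on GRCm38. Scd3, a desaturase gene outside the 31, had 6 to 28 counts in NOD_insHEL, 21 to 42 in NOD, 7 to 21 in B10_insHEL and 31 to 41 in B10 libraries, with a log2 difference of 0.72 (adjusted p = 0.0439, edgeR) averaged over the transgene. Scd4 had 0 to 2 counts in NOD_insHEL, 9 to 13 in NOD, 0 to 3 in B10_insHEL and 0 to 6 in B10 libraries, and its difference of 1.37 was not called (adjusted p = 0.227). Fads3, the neighbour of Fads1 and Fads2, differed by 0.17 (adjusted p = 0.714) at 5 to 92 counts a library.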
